A study of Mus musculus with 17 samples.

Results

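The genes of the proteasome were followed through dystrophic muscle of the mouse. They were taken as the 48 genes, of 12393 genes measured, whose only symbol in the array's annotation starts with Psma, Psmb, Psmc, Psmd, Psme, Psmf or Psmg and a number. Each was read from 1 probe set, the one with the highest mean over the 17 arrays. The 48 genes comprise 14 constitutive subunits of the 20S core together with Psma8, an alpha subunit of testis, the 3 immunoproteasome subunits Psmb8, Psmb9 and Psmb10, 17 subunits of the 19S particle, 3 activators, 1 inhibitor and 7 assembly chaperones. A further 2 genes, Psmc3ip and Psme3ip1, carry a subunit's name because their proteins bind it. The activator Psme2 shares its probe set with another symbol and was not read.

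RNA was taken from the tibialis anterior, a fast-twitch leg muscle, of mice labelled as males aged 56 days, and both muscles of an animal were pooled. The groups were 6 normal wild-type mice, 6 mdx mice, which carry a mutation of the dystrophin gene, and 5 fiona mice, a transgenic line with high levels of utrophin on the mdx background. Thus mdx and fiona share the dystrophin mutation and differ by the transgene (its promoter: not given in the sources used here). Each RNA was hybridised to 1 Affymetrix array, and all values below are the deposited log2 expression values or differences between them, so that a difference of 1 is a doubling. The level of one probe set cannot be set against that of another, and only differences between arrays are read.

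The proteasome is a barrel-shaped protease that degrades proteins tagged with ubiquitin. Its 20S core is built of alpha rings, which gate the entry, around beta rings, which hold the catalytic subunits Psmb5 (chymotrypsin-like activity), Psmb6 (caspase-like activity) and Psmb7 (trypsin-like activity). The 19S particle sits on the core, recognises ubiquitin chains, removes them and unfolds the substrate with its ATPases. Interferon gamma induces Psmb8, Psmb9 and Psmb10, which take the places of Psmb5, Psmb6 and Psmb7 in newly made cores and favour peptides for presentation on MHC class I molecules. In skeletal muscle the proteasome breaks down contractile proteins during wasting, and white blood cells that enter dystrophic muscle carry immunoproteasomes of their own.

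Array medians lay between 3.52 and 3.82 and correlations between arrays from 0.939 to 0.996. Precision is limited by how many arrays each group has. The labels call the arrays biological replicates, and p-values measure the spread between these animals. Dmd, the dystrophin gene, averaged 8.34 in normal muscle, 5.33 in mdx (adjusted p = 0.00131 in limma) and 5.04 in fiona. The utrophin gene Utrn averaged 6.98 in mdx and 6.57 on the fiona arrays, which did not pass the test (adjusted p = 0.307), and no source used here says whether its probe set lies within the transgene, so it does not check the fiona label. Once group means were removed, the arrays split into a pair of sets along a component with 42.5% of the remaining variance: set 1 held 3 normal, 3 mdx and 2 fiona arrays, and set 2 the other 3 of each group. No label gives a batch, and the sets were defined from these data. Against the labelled sex, 1 normal, 2 mdx and 4 fiona arrays had Xist, the transcript of the inactive X chromosome, without the Y-linked Eif2s3y, and mdx array 6 had both. Leaving these arrays out leaves 1 fiona array, so the pattern was also fitted as a covariate. Leukocyte markers rose in mdx: 12 of 20 measured markers were higher than in normal muscle and 0 lower, led by the myeloid genes Mpeg1 (by 5.36) and Tyrobp (by 5.31), while the T and NK cell markers Cd3e, Cd8a and Nkg7 differed by -0.07, -0.01 and -0.02 and none of these passed the test. The log2 of the summed marker levels lay between 9.29 and 10.5 in normal muscle, between 12.2 and 13.7 in mdx and between 9.15 and 10.8 in fiona. The same sum for 12 fast fibre markers had medians of 18.2, 18.1 and 18.2. In whole muscle, fewer cells of a type and less RNA per cell cannot be told apart.

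No proteasome gene was called different between mdx and normal muscle. In the limma fit over all genes, 0 of the 48 members reached an adjusted p under 0.05 (Benjamini-Hochberg over 12393 genes), against 4.66% of all genes. An unadjusted p under 0.05 was reached by 11 of 48 members and by 2149 of 12393 genes. Among members the smallest adjusted p was 0.104, for Psmd1. Differences ran from -0.46 (Psmd1) to 0.66 (Psmd10), that is, from 1.38-fold lower to 1.58-fold higher, and 34 were positive and 14 negative. The median was 0.09, beside -0.04 over all genes. For the median member, the 95% interval of its own difference reached 0.38 to either side. Psmb2, Psmb8, Psmc4, Psmd5 and Psmd10 were the members whose interval reached a doubling or a halving.

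**Figure D1:**
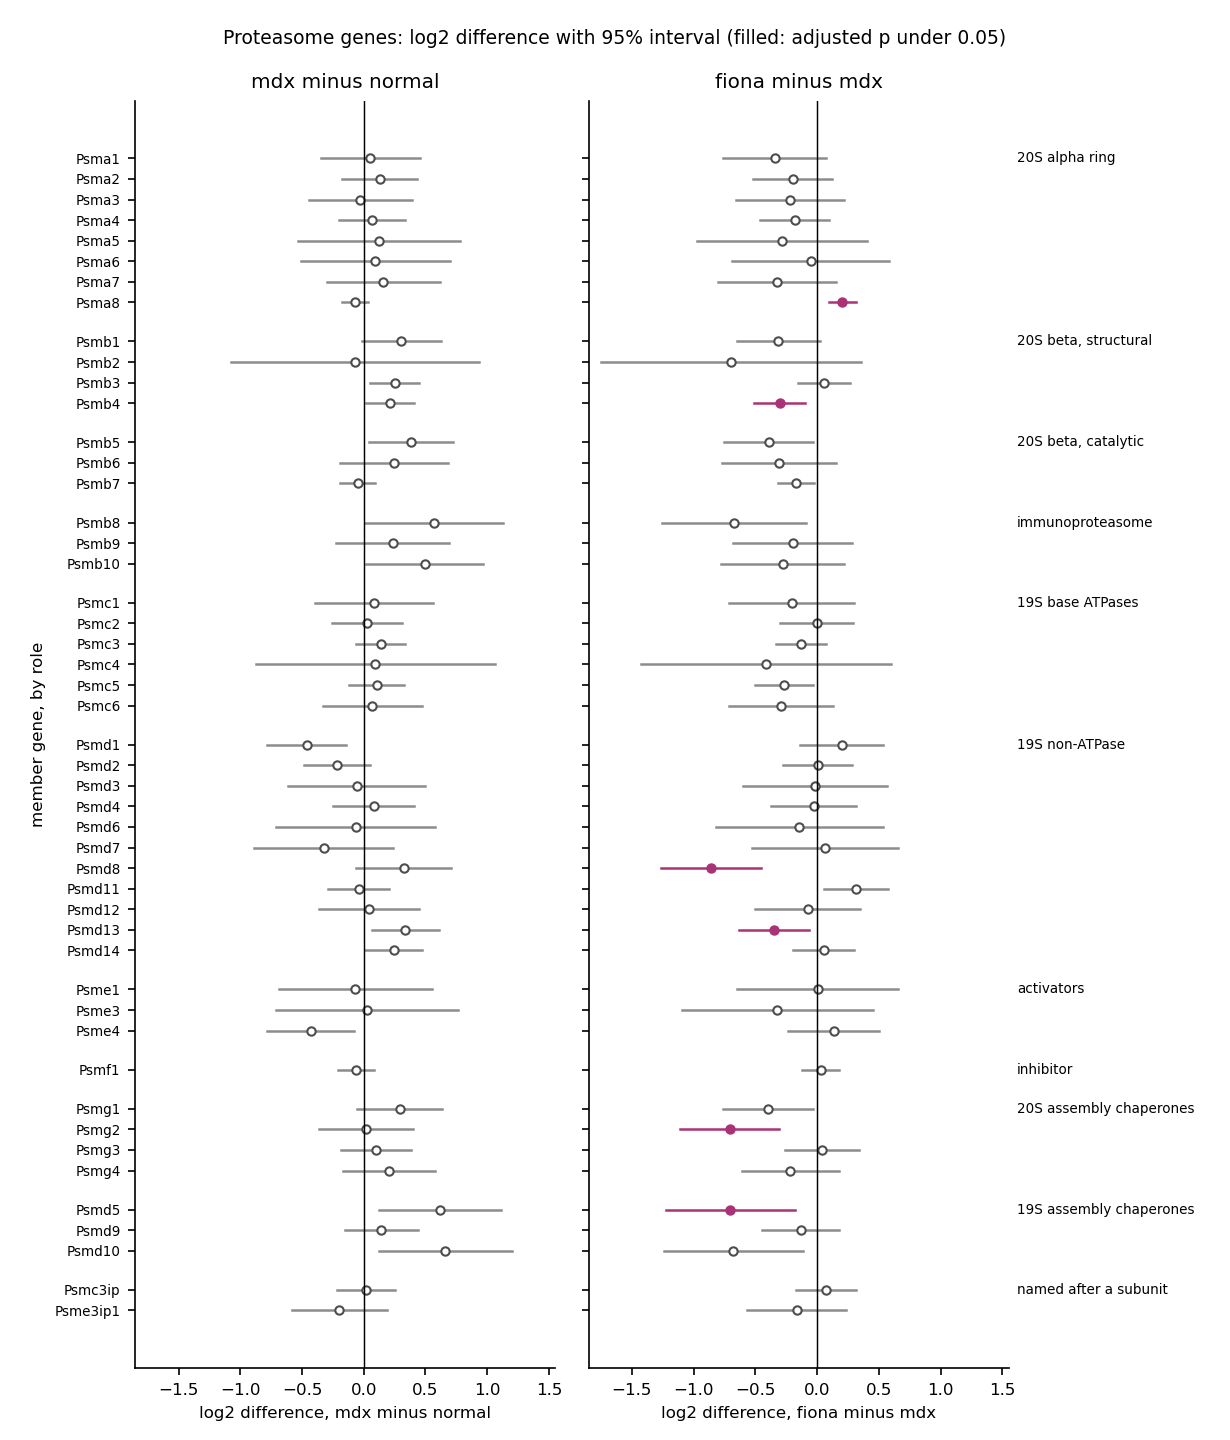
The 48 proteasome genes by role, with the log2 difference (point) and its 95% interval (line) for mdx minus normal (left) and fiona minus mdx (right). Filled points passed an adjusted p of 0.05 in limma: 0 on the left, and on the right Psma8 above 0 with Psmb4, Psmd8, Psmd13, Psmg2 and Psmd5 below it.

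The catalytic subunits of the constitutive core were measured well above the controls on every array. Psmb5 was 10.28, 10.73 and 10.92 (lowest, median and highest) in normal and 10.83, 10.99 and 11.37 in mdx muscle, and its fiona arrays read 10.32, 11.11, 10.71, 10.21 and 10.85. Of the mdx arrays, 4 of 6 lay above every normal array, and the fiona arrays spread across both groups. The mdx minus normal difference was 0.38 (95% interval 0.04 to 0.72, adjusted p = 0.232 in limma), and the fiona minus mdx difference was -0.39 (-0.75 to -0.03, adjusted p = 0.0752). Both were called once the array set was a block, at adjusted p = 0.0107 and 0.00706. With the sex pattern as a covariate the fiona minus mdx difference was -0.52 and was called (adjusted p = 0.0301 in limma). Psmb6 was 9.93, 10.23 and 10.41 in normal, 9.95, 10.42 and 10.89 in mdx, and 9.74, 10.93, 10.15, 9.55 and 10.26 on the fiona arrays, and the groups overlapped. Its differences were 0.24 (-0.19 to 0.68, adjusted p = 0.451) and -0.31 (-0.77 to 0.15, adjusted p = 0.273). Psmb7 was tighter, at 11.71, 11.88 and 11.96 in normal, 11.65, 11.84 and 11.92 in mdx, and 11.48, 11.78, 11.71, 11.52 and 11.70 on the fiona arrays. It differed by -0.05 (-0.19 to 0.09, adjusted p = 0.613) between mdx and normal, the narrowest interval of the catalytic subunits. All 5 fiona arrays lay below the mdx mean, by -0.17 on average (adjusted p = 0.0590, and 0.0143 with the array set as a block).

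The immunoproteasome subunits had positive mdx minus normal differences, but 1 array held part of them. Psmb8 was 4.64, 4.89 and 5.22 in normal, 5.07, 5.18 and 6.62 in mdx, and 4.69, 5.13, 5.06, 4.02 and 5.09 on the fiona arrays. Of the mdx arrays, 3 lay above every normal array, and the highest value, 6.62, was that of mdx array 1. The difference was 0.57 (0.01 to 1.13, adjusted p = 0.278) in mdx and -0.67 (-1.26 to -0.09, adjusted p = 0.0637) in fiona against mdx. Without mdx array 1 these became 0.34 and -0.44, and with the array set as a block the second was called (-0.74, adjusted p = 0.0136). The fiona minus mdx difference was also called with the sex pattern as a covariate (-0.96, adjusted p = 0.0149 in limma). It was -1.26 without the arrays of female pattern, which left 1 fiona array. Psmb10 was 5.47, 6.28 and 6.65 in normal, 6.24, 6.67 and 7.29 in mdx, and 6.21, 6.91, 6.56, 5.97 and 6.41 on the fiona arrays. All 6 mdx arrays lay above the normal mean, and the groups overlapped. It differed by 0.49 (0.02 to 0.97, adjusted p = 0.267) between mdx and normal and by -0.28 (-0.78 to 0.22, adjusted p = 0.366) between fiona and mdx.

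Psmb9 was not detected in most of the muscles. On 16 of 17 arrays it did not exceed the median of the unspiked bacterial controls, with normal values of 2.26, 2.31 and 2.32, mdx values of 2.26, 2.27 and 3.85, and fiona values of 2.32, 2.31, 2.33, 2.30 and 2.42. The exception was again mdx array 1, at 3.85, which was also the array with the highest leukocyte sum, 13.7. Whether leukocyte content set these values was not tested. The difference of 0.24 between mdx and normal (adjusted p = 0.482 in limma) turned to -0.03 without that array. Psme1, which encodes a subunit of the interferon-inducible activator PA28, was 8.13, 8.84 and 9.57 in normal, 8.05, 8.76 and 9.79 in mdx, and 8.68, 9.52, 8.68, 8.47 and 8.68 on the fiona arrays. The 3 groups covered the same range, and the differences were -0.07 (-0.69 to 0.55) and 0.00 (-0.65 to 0.66).

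**Figure D2:**
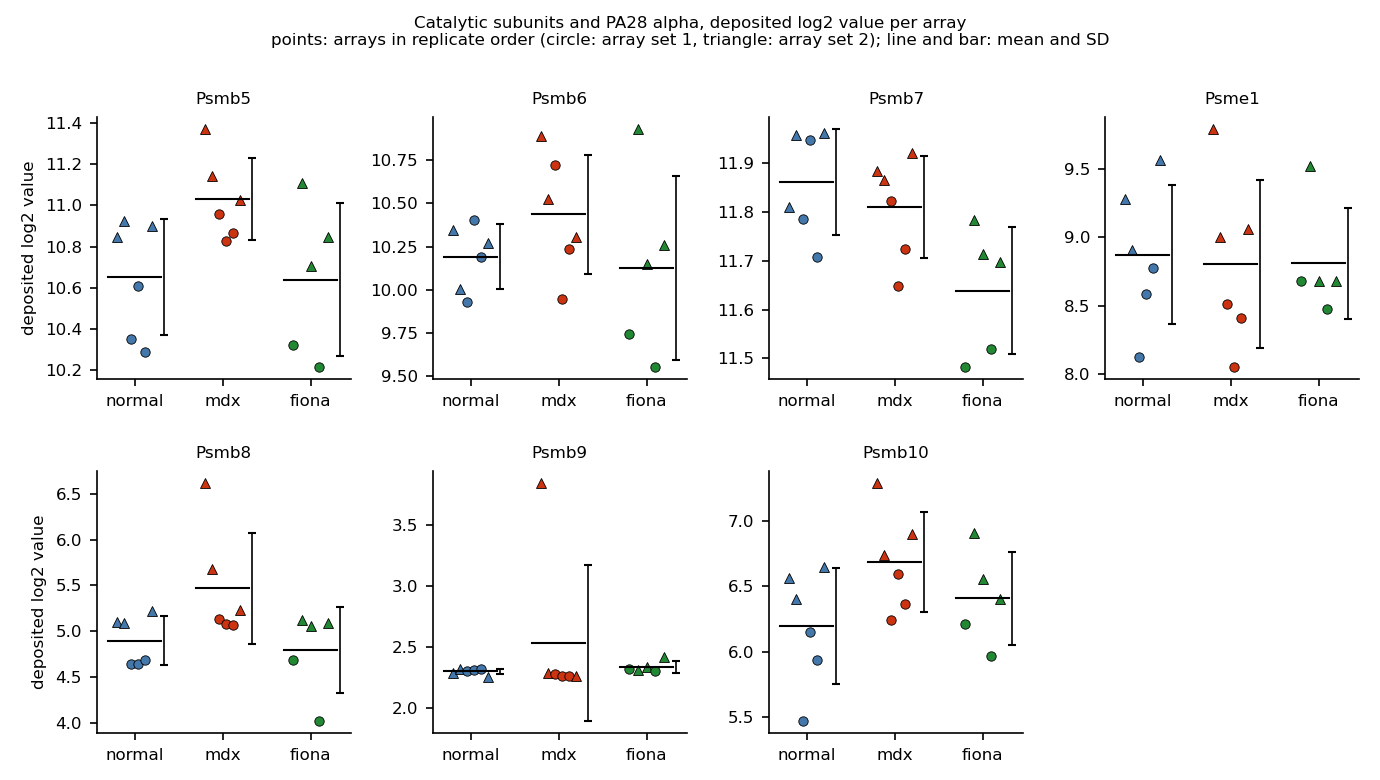
Deposited log2 values of the constitutive catalytic subunits (Psmb5, Psmb6, Psmb7), the activator Psme1 and the immunosubunits (Psmb8, Psmb9, Psmb10) on each array, with circles for array set 1, triangles for set 2, and the mean and SD of each group (6 normal, 6 mdx, 5 fiona arrays). Psmb9 is above 3 on 1 array, mdx array 1 at 3.85, and in Psmb5, Psmb8 and Psmb10 the triangles of a group lie mostly above its circles.

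Blocking on the array set brought 3 members past the threshold in mdx against normal, all higher: Psmb5, Psmb10 (adjusted p = 0.0233 in limma) and Psmd10 (adjusted p = 0.0485). The background with that block was 5.73% of all genes higher and 4.26% lower, and 3 of 48 is close to that share. Psmb8 remained short of the threshold (adjusted p = 0.0542). Because the sets were drawn from the residuals of the same arrays, these p-values carry that choice. In set 1 alone the mdx minus normal difference was 0.47 for Psmb5 and 0.55 for Psmb10, and in set 2 alone 0.29 and 0.44.

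Whether immunosubunits gained on the subunits they replace was read within each array as Psmb8 minus Psmb5, Psmb9 minus Psmb6 and Psmb10 minus Psmb7. Because each value sets different probe sets against each other, its own size has no meaning, and its shift between groups is the quantity compared. Psmb8 minus Psmb5 averaged -5.75 ± 0.13 (SD, n = 6) in normal, -5.56 ± 0.42 (n = 6) in mdx and -5.84 ± 0.24 (n = 5) on the fiona arrays. The shift of 0.19 in mdx was within the spread (two-sided exact permutation p = 0.370, adjusted over 9 comparisons p = 0.808), and without mdx array 1 it was 0.03. Psmb9 minus Psmb6 shifted by -0.01 in mdx against normal (exact permutation p = 0.970). Psmb10 minus Psmb7 averaged -5.67 ± 0.39 in normal, -5.12 ± 0.34 in mdx and -5.23 ± 0.24 on the fiona arrays. It was 0.54 higher in mdx, with 4 of 6 mdx arrays above every normal array (exact permutation p = 0.0260, adjusted p = 0.234, smallest p possible 0.00216), and the adjusted p was 0.0450 with arrays permuted within the array sets. Fiona minus mdx shifts of the 3 pairs were -0.28, 0.11 and -0.11 (exact permutation p = 0.225, 0.719 and 0.561), so that no pair was called in either direction. Fiona against normal gave -0.09, 0.10 and 0.44 (adjusted p = 0.808, 0.808 and 0.244 by the exact permutation test).

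**Figure D3:**
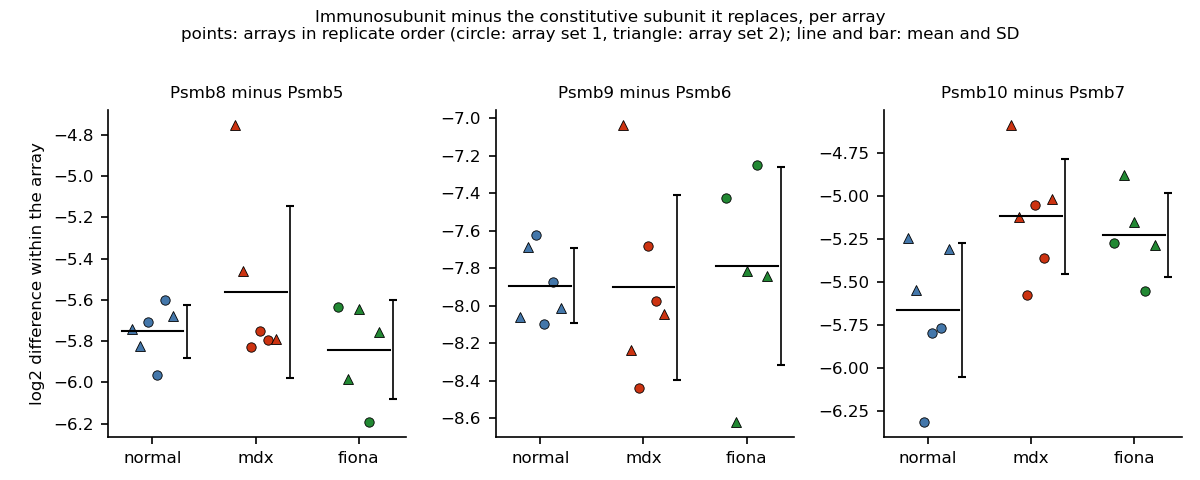
Difference between each immunosubunit and the constitutive subunit it replaces, per array, in log2 units (circles, array set 1; triangles, set 2; line and bar, mean and SD of 6 normal, 6 mdx and 5 fiona arrays). In the first panel mdx array 1 stands alone at -4.75, and in the third the mdx mean of -5.12 lies above the normal mean of -5.67.

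The promoter windows of Psmb5, Psmb6 and Psmb8 are shown because they were the catalytic genes with a match to an element of either pathway that regulates proteasome genes. The 250 bases upstream of the gene start were taken from RefSeq on GRCm38.p6 for Psmb5 (chr14:54617996-54618245, minus strand), Psmb6 (chr11:70525107-70525356, plus strand) and Psmb8 (chr17:34197945-34198194, plus strand), 5′ to 3′ along the gene. Capitals mark an antioxidant response element core, TGACNNNGC, in Psmb5 and Psmb6, the element bound by Nfe2l1 and Nfe2l2, and a gamma-activated site, TTCNNNGAA, in Psmb8, an element of interferon signalling.
Psmb5: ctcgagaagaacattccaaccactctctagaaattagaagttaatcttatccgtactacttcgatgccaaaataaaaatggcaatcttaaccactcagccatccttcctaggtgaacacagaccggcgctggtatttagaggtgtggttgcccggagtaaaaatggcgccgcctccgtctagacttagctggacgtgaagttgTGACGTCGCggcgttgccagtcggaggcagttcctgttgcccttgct
Psmb6: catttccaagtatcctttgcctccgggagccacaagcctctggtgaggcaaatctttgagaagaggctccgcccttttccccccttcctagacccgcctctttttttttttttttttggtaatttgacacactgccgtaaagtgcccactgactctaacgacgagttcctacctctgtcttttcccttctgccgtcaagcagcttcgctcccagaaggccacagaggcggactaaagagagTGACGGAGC
Psmb8: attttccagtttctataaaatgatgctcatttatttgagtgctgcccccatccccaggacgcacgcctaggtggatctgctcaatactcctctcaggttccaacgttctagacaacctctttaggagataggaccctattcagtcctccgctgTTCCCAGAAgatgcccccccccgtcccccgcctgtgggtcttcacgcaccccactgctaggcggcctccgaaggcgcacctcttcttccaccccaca
Both strands of each window were searched, for 40 of 48 members. A member counted once if any of its promoters matched, and 3 members had more than 1. The shares over all were counted per promoter, so the units differ. Psma8, Psmb1, Psmb2, Psmb7, Psmc3, Psmd3, Psmd7 and Psmg2 were not analysed here. The antioxidant core was found in 5 of 40 members (12.5%), namely Psmb5, Psmb6, Psmc6, Psmd9 and Psmd12, and in 10.2% of all 32851 promoters. The gamma-activated site was found in 2 of 40 members, Psmb8 and Psmg1, and in 7.02% of all promoters. An interferon-stimulated element core, GAAANNGAA, was found in 3 of 40 members, Psmb3, Psmd4 and Psmd9, and in 7.13% of all promoters, and the CCAAT box in 15 of 40 members and 33.8% of all promoters. A match is a stretch of letters and not a measured binding site. The gene order in the same annotation places Psmb9, Tap1, Psmb8 and Tap2 next to each other on chromosome 17, where Tap1 and Tap2 encode the transporter that carries proteasome products to MHC class I. The Nfe2l1 gene differed by -0.73 in mdx (adjusted p = 0.347 in limma) and by 0.86 in fiona against mdx (adjusted p = 0.106), and Nfe2l2 fell by 1.00 in fiona against mdx (adjusted p = 0.0152).

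None of the remaining core and 19S genes was called between mdx and normal muscle. Of the 14 constitutive core genes without Psma8, 11 differences were positive and 3 negative, with a median of 0.12 and a range from -0.07 (Psmb2) to 0.38 (Psmb5). The alpha subunits Psma1 to Psma7, which form the outer rings, stayed between -0.03 (Psma3) and 0.16 (Psma7). Among the structural beta subunits, Psmb3 and Psmb1 differed by 0.25 and 0.30, with all 6 mdx arrays above the normal mean in each, at adjusted p = 0.171 and 0.314. The 6 ATPases of the 19S base, Psmc1 to Psmc6, were all on the positive side, between 0.03 (Psmc2) and 0.14 (Psmc3). The 11 other 19S subunits ran from -0.46 to 0.34, with Psmd1, the large scaffold of the base, lowest and Psmd13, a lid subunit, highest. Psmd1 was 9.57, 9.82 and 10.02 in normal and 8.52, 9.50 and 9.57 in mdx muscle, with 5 of 6 mdx arrays below every normal array. Mdx array 1, at 8.52, widened its spread: without that array the difference was -0.30 and was called (adjusted p = 0.0377 in limma), the only member called when any 1 array was left out of this comparison. Psme4, which encodes the activator PA200, was 10.54, 10.77 and 11.12 in normal and 9.95, 10.39 and 10.69 in mdx muscle. Here too 5 of 6 mdx arrays lay below every normal array, with a difference of -0.43 (adjusted p = 0.182), which was -0.66 (adjusted p = 0.0350) when the gene's probe sets were averaged.

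Among the assembly chaperones, Psmd10 and Psmd5 had the largest differences of all members, and 0 of 7 were called. All 7 differences were positive, with a median of 0.20, which is that of Psmg4, a gene at or under the controls on all 17 arrays. Without mdx array 1 the median was 0.09, and Psmg3 and Psmg4 were at -0.02 and -0.01. Psmd10 and Psmd5 hold ATPases of the 19S base during assembly. Psmd10 was 5.75, 6.37 and 6.76 in normal and 6.30, 7.04 and 7.68 in mdx muscle, with 4 of 6 mdx arrays above every normal array (0.66, SE 0.25, adjusted p = 0.175). Psmd5 was 4.70, 5.19 and 5.41 in normal and 5.22, 5.80 and 6.43 in mdx muscle, again with 4 of 6 above (0.62, SE 0.23, adjusted p = 0.169). The third 19S chaperone, Psmd9, differed by 0.14. The 20S chaperones Psmg1 and Psmg2, which guide the alpha ring, differed by 0.29 and 0.02. The inhibitor Psmf1 differed by -0.06 (-0.21 to 0.08).

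Against mdx, fiona muscle had 6 called members, and 5 of them fell. In the limma fit, Psmd8, Psmg2, Psmd5, Psmb4 and Psmd13 were lower and Psma8 was higher at an adjusted p under 0.05. The share of all genes called was 32.1% higher and 6.79% lower, so that 1 of 48 members higher was far under the background and 5 of 48 lower a little above it. The many higher calls depended on the scaling between arrays: with arrays centred on a common median, the all-gene median moved from 0.08 to -0.04 and higher calls made up 45.1% rather than 82.5% of the total, and with quantile normalization 69.8%. Among the genes above the control level on every array, 21.1% were called higher and 8.88% lower, and of the 45 members among them 0 and 5. Of all 48 differences, 12 were positive and 36 negative, with a median of -0.20 against 0.08 over all genes, and the members' median was -0.32 with median-centred arrays and -0.09 after quantile normalization.

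Psmd8, a lid subunit of the 19S particle, fell most. It was 9.37, 9.76 and 10.16 in normal and 9.52, 10.24 and 10.50 in mdx muscle, and the fiona arrays read 8.85, 9.58, 9.16, 9.23 and 9.31. Of the fiona arrays, 4 of 5 lay below every mdx array, and the same number lay below every normal array. The fall was 1.81-fold (log2 difference -0.86, SE 0.19, adjusted p = 0.0133 in limma), and it was called without each of the 11 arrays in turn. It was -1.30 in set 1 alone (adjusted p = 0.0113) and -0.48 in set 2 alone (adjusted p = 0.246).

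Psmg2, a chaperone of the alpha ring, was 7.62, 7.86 and 8.01 in normal and 7.52, 7.77 and 8.26 in mdx muscle. Its fiona arrays read 7.49, 7.60, 7.20, 6.44 and 6.97, with 4 of 5 below every mdx array and 5 of 5 below every normal array. It fell 1.63-fold (-0.71, SE 0.19, adjusted p = 0.0142), was called without each array in turn, and its second probe set fell by 0.80. The call was lost after quantile normalization (-0.51, adjusted p = 0.0675), with a replicate block (-0.73, adjusted p = 0.0507), in set 1 alone (-1.02, adjusted p = 0.0665) and in set 2 alone (-0.45, adjusted p = 0.244). With the sex pattern as a covariate Psmd8 and Psmg2 were called at -0.77 and -0.74, and without the arrays of female pattern, which left 1 fiona array assumed to vary like the other groups, the differences were -0.89 (adjusted p = 0.0804) and -1.53 (adjusted p = 0.00864).

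**Figure D4:**
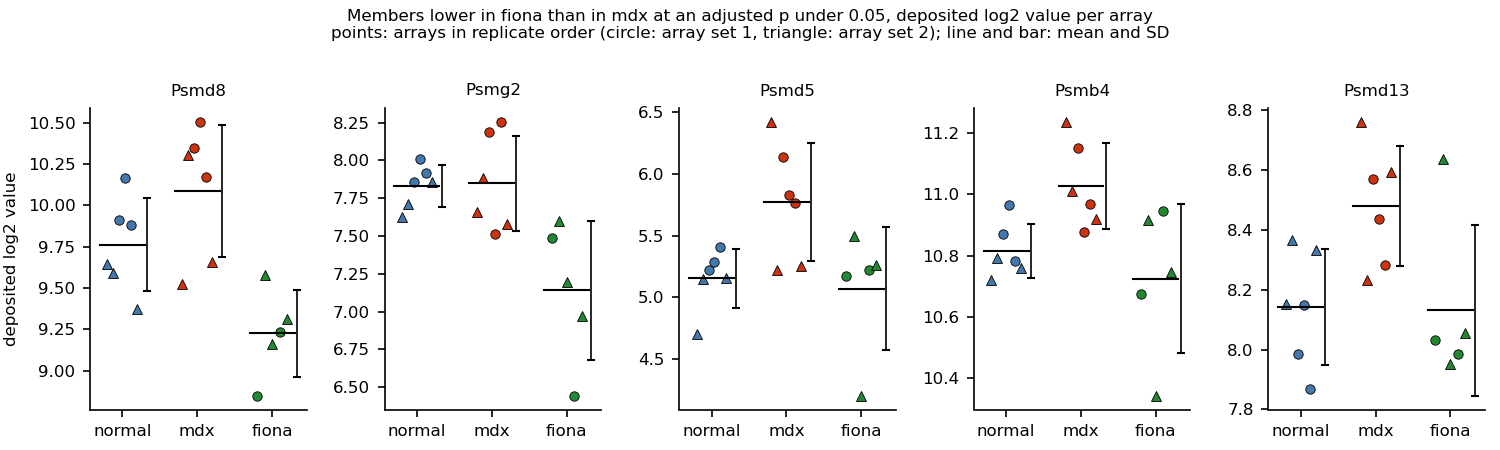
Deposited log2 values on each array of the 5 members that fell between mdx and fiona (circles, array set 1; triangles, set 2; line and bar, mean and SD of 6 normal, 6 mdx and 5 fiona arrays). In Psmd8 and Psmg2, 4 of 5 fiona arrays lie below all mdx arrays, in Psmd5 the low mean rests partly on fiona array 3 at 4.20, and in Psmd13 fiona array 2 stands above the others at 8.64.

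The other falls depended on single arrays. Psmd5 was 5.17, 5.49, 4.20, 5.22 and 5.26 in fiona muscle, with 2 of 5 below every mdx array, and fell by 0.70 (SE 0.24, adjusted p = 0.0341). The fiona mean was 5.07 and the normal mean 5.15. The call was lost without any one of mdx arrays 1, 3, 4 and 5 or fiona arrays 3 and 5, with adjusted p between 0.0517 and 0.0913. Psmb4, a structural beta subunit, was 10.72, 10.79 and 10.97 in normal and 10.88, 10.99 and 11.24 in mdx muscle, and 10.67, 10.92, 10.34, 10.95 and 10.75 on the fiona arrays, 3 of them below every mdx array. Its fall of 0.30 (SE 0.10, adjusted p = 0.0252) was lost without mdx array 1, mdx array 3 or fiona array 3, with adjusted p up to 0.0579. The second probe set of Psmb4 differed by -0.04 (adjusted p = 0.922). Psmd13 was 7.87, 8.15 and 8.37 in normal and 8.23, 8.50 and 8.76 in mdx muscle, and 8.03, 8.64, 7.95, 7.98 and 8.06 on the fiona arrays. Although 4 of these lay below every mdx array, its difference of -0.35 (adjusted p = 0.0496) was called in only 2 of the 11 fits that left out an array, those without mdx array 2 or fiona array 2. Its second probe set differed by -0.12 (adjusted p = 0.487), and with median-centred arrays the adjusted p was 0.0584. With the sex pattern as a covariate, Psmd5 and Psmd13 were called at -0.79 and -0.44 (adjusted p = 0.0346 and 0.0256 in limma), and Psmb4 was not called. Without the arrays of female pattern, which left 1 fiona array, Psmd5, Psmb4 and Psmd13 differed by -0.37, -0.07 and -0.44.

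Psma8 had the only higher call, and it rests on signal that is not a measured level. All 17 values, from 2.38 to 2.82, lay at or under the controls, and the difference of 0.20 (adjusted p = 0.0136 in limma) is given without a fold. The controls were also higher on the fiona arrays (2.75 to 2.99) than on the mdx arrays (2.65 to 2.75). With median-centred arrays it was 0.08 (adjusted p = 0.0549).

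The number of members called in fiona against mdx shifted with single arrays. It was 3 without mdx array 1, mdx array 3 or fiona array 3, 10 without mdx array 2 and 12 without fiona array 2. The number of all genes called also changed with the array left out, so these counts are not read as a result about the members. Psma8, Psmd8 and Psmg2 were the members called in all 11 of these fits. With the array set as a block, 13 members were called: Psma8 and Psmd11, a lid subunit, higher, and Psmb1, Psmb4, Psmb5, Psmb7, Psmb8, Psmc5, Psmd5, Psmd8, Psmd10, Psmd13 and Psmg2 lower. That is 2 of 48 higher beside 34.1% of all genes, and 11 of 48 lower beside 9.48%. The sets were drawn from the residuals of these same arrays. Members followed the component behind them more closely, with a median absolute correlation of 0.61 beside 0.32 for sampled genes. The block can thus narrow the spread of members more than that of other genes, and the counts are not read as a result about the members. Psmb8, Psmb5 and Psmb7 differed by -0.74, -0.62 and -0.23 in set 1 alone and by -0.75, -0.29 and -0.16 in set 2 alone, where 0 members were called. Those of Psmb8 rest partly on fiona array 4, at 4.02 in set 1, and on mdx array 1, at 6.62 in set 2.

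By role, the differences of fiona against mdx were unequal. The constitutive core had a median of -0.30 with 13 of 14 negative, the assembly chaperones -0.40 with 6 of 7 negative, and the immunoproteasome -0.28 with 3 of 3 negative. Psmb9 was negative through mdx array 1 and stood at 0.07 without it. The chaperone Psmg4, at or under the controls on all 17 arrays, was also negative through that array. It read 2.17 there and 0.86 to 0.97 on the other mdx arrays. The 19S particle had a median of -0.08 with 12 of 17 negative, and only Psmd8 and Psmd13 of its genes were called. The ATPases, Psmc1 to Psmc6, were on the negative side throughout, from -0.41 (Psmc4) to -0.01 (Psmc2). Psmb2, a structural core subunit, had the widest interval, -1.75 to 0.36 around -0.70: its fiona arrays read 5.82 and 5.53 in set 1 and 7.98, 8.21 and 7.91 in set 2. Leukocyte markers moved with this comparison as well, 13 of 20 lower and 3 higher in fiona, and their part in the members' differences was not tested. The comparisons of mdx with normal and of fiona with mdx share the mdx arrays, and their differences are set side by side for the called members and those described above. For Psmd5 these were 0.62 and -0.70, for Psmd10 0.66 and -0.68, for Psmb8 0.57 and -0.67, for Psmb5 0.38 and -0.39, for Psmb10 0.49 and -0.28, for Psmd8 0.32 and -0.86, and for Psmb4 0.21 and -0.30. They were 0.34 and -0.35 for Psmd13, 0.02 and -0.71 for Psmg2, -0.07 and -0.70 for Psmb2, -0.46 and 0.20 for Psmd1, and -0.43 and 0.13 for Psme4. A high or low mdx mean enters both values with opposite sign, so a change of sign between them is no second observation.

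Fiona and normal muscle, which differ by both the mutation and the transgene, gave 0 called members. The fit called 0% of all genes, although 2626 genes and 7 members had an unadjusted p under 0.05, and the members' smallest adjusted p was 0.210. The median over members was -0.08, with 13 positive and 35 negative, beside 0.04 over all genes. Psmg2 differed by -0.69 (-1.09 to -0.29), with its highest fiona array at 7.60 and its lowest normal array at 7.62. Psmd8 differed by -0.53 (-0.94 to -0.13). Psmb5, Psmb8 and Psmb10 differed by -0.01, -0.10 and 0.21. With the array set as a block, 0 members were called, beside 0.0242% of all genes higher and 0.129% lower. Without fiona array 2, 3 members were called: Psma8 (0.17), Psmb7 (-0.26) and Psmg2 (-0.80). That is 6.25% of members, beside 7.86% of all genes in that fit, and Psma8 is at or under the controls throughout.

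Within the groups, the proteasome genes did not move as 1 unit. The median SD of residuals from the group means was 0.32 over members and 0.22 over all genes. The component that separates the array sets ran through many members: the median absolute correlation of a gene's residuals with it, over the 17 arrays that also define it, was 0.61 for members and 0.32 for 1033 genes sampled evenly by symbol. Its direction differed by role among the chosen probe sets. Psma1 to Psma7 were all higher in set 1, by 0.16 (Psma4) to 0.82 (Psma5), as were the ATPases Psmc1 to Psmc6, by 0.05 (Psmc3) to 1.26 (Psmc4). The catalytic subunits read lower in set 1, with differences of -0.45 for Psmb5, -0.33 for Psmb6 and -0.15 for Psmb7. So did the immunosubunits Psmb8 and Psmb10, with -0.65 and -0.60. The -0.19 of Psmb9 rests on mdx array 1, since the other 16 arrays lay between 2.26 and 2.42. The other 19S subunits divided: Psmd6, Psmd7 and Psmd12 were higher by 0.89, 0.74 and 0.49, while Psmd3 and the ubiquitin receptor Psmd4 differed by -0.77 and -0.42. The activators Psme1, Psme3 and Psme4 differed by -0.72, -0.85 and 0.30. No test is given for these shifts, since the same arrays defined the sets. Each shift is that of the chosen probe set, and further probe sets were not read this way. In normal, mdx and fiona muscle the second Psmc4 probe set had SDs of 0.08, 0.19 and 0.23. Those of the chosen one were 0.92, 0.63 and 0.87. For Psmd6 they were 0.18, 0.12 and 0.18, beside 0.59, 0.47 and 0.58 for the chosen one. Further probe sets of Psma7 and Psmc6 spread more than the chosen ones. The median correlation between residuals of a pair of genes was 0.29 in the constitutive core and -0.04 in the 19S particle. It was 0.05 among sampled pairs of all genes, with the 17 arrays and the array sets shared by every pair. Psmb8 and Psmb10 correlated at 0.79, which is not particular to immunosubunits. With the constitutive subunit Psmb5 they correlated at 0.81 and 0.86, with Psmb6 at 0.65 and 0.58, and with Psmb7 at 0.57 and 0.65.

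**Figure D5:**
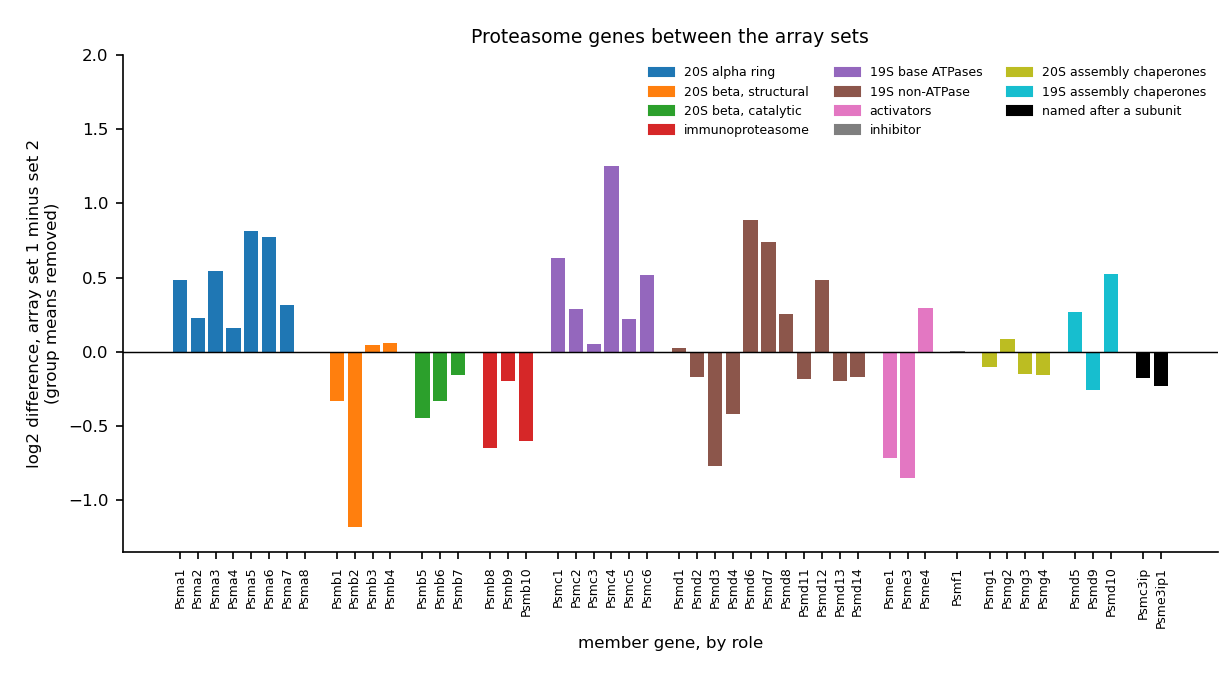
Each bar is 1 of the 48 members, grouped by role (colours) and read from its chosen probe set. It gives the mean log2 value on the arrays of set 1 minus that on set 2 after removal of the group means. Bars of the alpha subunits Psma1 to Psma7 and of the ATPases are above 0, up to 1.26 in Psmc4, those of the catalytic and immunoproteasome subunits are below 0, down to -0.65 in Psmb8, and the lowest bar is that of the structural subunit Psmb2 at -1.18.

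Further probe sets of the same genes were read as well. Of the 48 members, 21 had more than 1 probe set, with 37 further probe sets in all. Their mdx minus normal differences had the sign of the chosen probe set in 20 of 37, and 0 were called. Their fiona minus mdx differences shared the sign in 19 of 37, with 11 called higher and 2 lower. The 11 are 29.7% of these probe sets, near the 32.1% of all genes called higher, and 4 of them lay at or under the controls on every array. The 2 called lower were those of Psmg2 (-0.80) and Psmb3 (-0.53, adjusted p = 0.0467 in limma). The chosen probe set of Psmb3 differed by 0.06. That of Psmd11 differed by 0.32, while the next brightest probe sets of this gene differed by 0.10 and -0.13 and were not called.

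Genes around the proteasome were read from lists of its partners, of ubiquitin conjugation and of antigen presentation. Of 14 partners and regulators measured, 1 was called in mdx, Ecpas, a scaffold that binds the proteasome, which fell by 0.55 (adjusted p = 0.0152 in limma). In fiona against mdx 3 of 14 were called, all lower: Nfe2l2, Akirin2, which carries proteasomes into the nucleus, by 0.74 (adjusted p = 0.0168), and Pomp, the maturation factor of the 20S core, by 0.39 (adjusted p = 0.0481). Of 6 ubiquitin-conjugating genes measured, Ube2n was called in both comparisons, with 8.11 ± 0.23 (SD, n = 6) in normal, 8.75 ± 0.17 (n = 6) in mdx and 8.09 ± 0.25 (n = 5) on the fiona arrays. Its groups did not overlap in either comparison (0.64, adjusted p = 0.00440, and -0.66, adjusted p = 0.00634, limma). Of 7 muscle ubiquitin ligases measured, 0 were called in mdx, and Nedd4 fell by 0.31 (adjusted p = 0.0186) and Traf6, at or under the controls on all 17 arrays, was called higher by 0.10 in fiona against mdx.

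The MHC class I pathway, which receives the products of the immunoproteasome, had 1 of 12 measured genes called in mdx. B2m, the light chain of class I molecules, rose by 0.73 (adjusted p = 0.0138 in limma) and fell by 0.80 in fiona against mdx (adjusted p = 0.0115), where Canx also fell by 0.43 and Tap1 was called higher by 0.19. Tap1 averaged 2.80 in mdx and 2.99 on the fiona arrays. Of 18 measured genes of interferon gamma signalling, 2 rose in mdx, Ifi30 by 2.46 (adjusted p = 1.44e-06) and Ifi35 by 0.88 (adjusted p = 0.0202), and Ifi30, which encodes a lysosomal reductase abundant in antigen-presenting cells, moved with the leukocyte markers, whose part in it was not tested. Irf1, which activates Psmb8 and Psmb9, differed by 0.36 (adjusted p = 0.381) and Ifng by -0.06 (adjusted p = 0.296). In fiona against mdx 3 genes of that list fell, Ifi30 by 2.33, Ifngr1 by 1.01 and Ifi35 by 0.88, and Ifng, read at 3.04 ± 0.05 in fiona muscle, was called higher by 0.12. Ifng and Tap1 read close to the unspiked controls, which themselves lay between 2.65 and 2.75 on the mdx arrays and between 2.75 and 2.99 on the fiona arrays.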

How the data were processed

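The authors deposited log2 expression values per probe set for 17 Affymetrix arrays. RMA and GCRMA are both named in the submitters' processing notes (which of them made the table: not given in the sources used here). Of 22690 probe sets, 64 controls, 691 with several symbols and 1555 with none were set aside. Genes were represented by their brightest probe set, without a filter on level. The members, lists, rules and tests were chosen with earlier results of these data known. Every member could be named, with values of every array for the catalytic genes, Psme1 and called members, and up to 4 called genes of each list; Psme2 had no probe set of its own and was not read.

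Groups were compared with limma 3.58.1 in R 4.3.3 in 1 fit of 3 group means, with Benjamini-Hochberg adjustment over 12393 genes. Differences are first group minus second. Pairs of subunits were tested by two-sided exact permutation over arrays, 9 tests in all. The fit was tested on simulated data. The unspiked control level is the array's median over 15 bacterial probe sets. An evenly spaced sample of 1033 genes stands for all genes in the correlations. Promoters came from RefSeq, for 40 members. Alternatives were the mean of probe sets, median-centred and quantile-normalized arrays, a filter on dim genes, only the compared groups, replicate and array set blocks, each array set alone, the sex pattern as covariate, arrays of female pattern left out, and each array left out in turn. Plots used matplotlib 3.10.9 under Python 3.11.15.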

Additional observations from a re-analysis of the deposited data

Results flagged for a closer look

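In mdx array 1, Psmb9 was 3.85 while the nearest other mdx array read 2.29, and Psmb8 minus Psmb5 was -4.75 against -5.46 on the nearest. In fiona array 2, Psme1 was 9.52 against 8.68 and Psmd13 was 8.64 against 8.06. Psmd5 was 4.70 in normal array 1, where the nearest normal array read 5.15, and 4.20 in fiona array 3, where the nearest read 5.17. In each case 1 array stood far from the others of its group, measured by its gap over the group's range. Of 48 sets of values examined this way, 6 stood out, and chance alone marks about 1 in 20.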

How the results depend on the processing

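Members called in mdx against normal numbered 0 in the reported fit, 1 with probe sets averaged, 3 with the array set as a block and 5 in set 1 alone, and 0 to 1 when arrays were left out in turn. In fiona against mdx they numbered 6, and 3 after quantile normalization, 1 with a replicate block, 13 with the array set block, 10 in set 1 alone, 0 in set 2 alone, and 3 to 12 over arrays left out. In that comparison, no share of all genes is given here for set 1 alone or the sex pattern covariate. Neither fit is therefore read as a result about the members. Members called there with the sex pattern as a covariate were Psma8, higher, and Psmb1, Psmb5, Psmb8, Psmd5, Psmd8, Psmd13, Psmg1 and Psmg2, lower. In fiona against normal they numbered 0, 1 in set 1 alone, 2 without arrays of female pattern, and 0 to 3 over arrays left out. All genes called in mdx against normal (578) became 1238 with the array set block, 2565 in set 1 alone, 272 in set 2 alone and 382 without arrays of female pattern, and 441 to 692 over arrays left out. In fiona against mdx (4818) they became 1432 with median-centred arrays, 1891 after quantile normalization, 2129 with the filter on dim genes, 509 with a replicate block, 110 in set 2 alone and 1586 without arrays of female pattern, and 3191 to 5342 over arrays left out. In fiona against normal (0) they became 1 with probe sets averaged, 1 with a replicate block, 19 with the array set block, 29 in set 1 alone, 5 in set 2 alone and 466 without arrays of female pattern, and 0 to 974 over arrays left out, the highest without fiona array 2. The shift of Psmb10 minus Psmb7 in mdx, 0.54, passed the threshold with the array set block (exact permutation within sets, adjusted p = 0.0450) and ranged from 0.41 to 0.64 over arrays left out. The causes of these changes were not tested, except that the sets alone and the fits without arrays hold fewer arrays. Residuals of same-numbered arrays correlated from 0.09 to 0.61 for mdx with normal, where the same numbers lie in the same array set and 1 of 6 mdx arrays was closest to its own number, -0.42 to 0.30 for fiona with mdx and -0.49 to 0.48 for fiona with normal, so the numbers were not taken as pairs. Under the replicate block Psmd8 was the 1 member called.

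The scale of the deposited values, RMA or GCRMA, decides how low signals read, and Psma8, Psmg4 and Psmb9 lie at or near the unspiked controls. The array sets have no label, and sex pattern and transgene overlap in 4 of 5 fiona arrays.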

Other observations

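Fbxo32, the muscle ubiquitin ligase atrogin-1, falls outside the rule for named genes and was chosen after its values were seen. It read between 9.37 and 10.06 on the normal arrays and 4.56, 8.96, 9.52, 5.83, 9.59 and 7.81 on mdx arrays 1 to 6. The mdx mean was lower by 1.92 on the log2 scale, which did not pass the test (adjusted p = 0.176 in limma), and the 2 lowest values were those of mdx arrays 1 and 4, the mdx arrays of female pattern. Normal array 6, also of female pattern, read 9.50. The fiona arrays of female pattern read 9.25, 7.40, 8.13 and 8.01, beside 8.90 on fiona array 4. A link of Fbxo32 with the sex pattern was not tested. Psmg3 and Psmg4, chaperones of the 20S core, read 4.14 and 2.17 on mdx array 1, beside 3.40 to 3.53 and 0.86 to 0.97 on the other mdx arrays. Psmg3 was also high on fiona array 2, at 4.13, and Psmg4 lay at or under the controls on all arrays.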
